A study of Mus musculus with 7 samples.

Results

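The chemokine and homing receptors examined here are 10 mouse genes whose products sense guidance signals for blood cells: the chemokine receptors Cxcr4, Ccr9, Ccr7, Ccr2, Ccr1, Cx3cr1 and Cxcr2, the sphingosine-1-phosphate receptors S1pr1 and S1pr4, and the roundabout receptor Robo4. They were taken by gene symbol from a table of 39179 Ensembl gene IDs. All 10 were found, and all 10 passed the filter on low values that left 12813 genes for testing. The cells were LSK cells, the lineage-negative, Sca-1 and Kit positive fraction of mouse bone marrow in which blood stem cells and multipotent progenitors are found. Bulk RNA-seq libraries came from 4 samples of mice that carry Vav1Cre alone, called control, and from 3 samples of mice that carry Vav1Cre together with floxed alleles of the histone demethylase gene Jmjd1c (Jmjd1c f/f Vav1Cre), called Jmjd1c. All mice were 7 weeks old, of the strain given as C57/BL6, and carried the Cre transgene, so that Cre itself does not differ between the groups. The Vav1 promoter drives Cre throughout the blood system, and the deletion therefore reaches mature leukocytes as well as LSK cells. Whether a library is 1 animal or a pool is not given, so the p-values reflect library-to-library spread alone, part of which may be technical.

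Chemokine receptors are G protein-coupled receptors of the cell surface. On binding a secreted chemokine they signal mainly through inhibitory G proteins and turn the cytoskeleton of the cell towards the source. CXCR4 and its ligand CXCL12, made by marrow stroma, hold stem and progenitor cells in the marrow. CCR9 and CCR7 direct lymphoid progenitors towards the thymus, CCR2 lets monocytes leave the marrow, and CXCR2 releases neutrophils. S1P receptors respond to the lipid sphingosine-1-phosphate, which is abundant in blood and lymph and draws cells out of tissues. ROBO4 takes part in the lodging of stem cells next to marrow vessels.

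Values are gene counts divided by a size factor of each library, called normalized read counts, and recovered reads in genes ranged from 4303712 to 6436519 per library. Jmjd1c had 458 to 516 normalized read counts in the control libraries and 244 to 294 in the Jmjd1c libraries (log2 fold change -0.89 ± 0.09, limma adjusted p = 0.00407), over all its exons and not only the deleted part. Kit (4778 to 7268 in all libraries), Cd34 (7850 to 8815) and Ly6a, which encodes Sca-1 (694 to 915), were present throughout. The neutrophil antigen gene Ly6g lay between 0 and 1.21. The 12 neutrophil markers, of which Ly6g is 1, nevertheless summed to 10807 to 14357 in the control and 7394 to 10582 in the Jmjd1c libraries. The gate was not free of other RNA: summed markers of monocytes and macrophages reached 28847 in control 4 while controls 1 to 3 had 11732 to 14515 and the Jmjd1c group 8392 to 13102. Values of Ccr2, Cx3cr1 and Cxcr6, which were far higher in control 4 than elsewhere, are therefore given with and without it.

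None of the 10 receptors passed the threshold of 0.05 on the adjusted p over all tested genes (limma), where 1.8% of all tested genes did. At an unadjusted p under 0.05 there were 3, namely Ccr1, Ccr9 and Ccr7, all lower in Jmjd1c, where 7.84% of all tested genes lay under it in that direction. On the recovered reads edgeR called 0 of the 10, where 1.82% of all genes were called. At an unadjusted p under 0.05 edgeR had 4 of the 10, and 2482 of all 12813 tested genes. DESeq2 called 1, Ccr1, lower in Jmjd1c, with 0.913% of all genes called lower. The same 3 genes were those whose Jmjd1c libraries all lay below every control library, a pattern shown by 7.1% of all tested genes in that direction. In 8 of 10 receptors the log2 fold change was below 0, as in 51.5% of all tested genes, and the median was -0.31 against -0.01 over all tested genes. In these bulk samples fewer cells that express a receptor and less RNA per cell cannot be told apart.

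**Figure D1:**
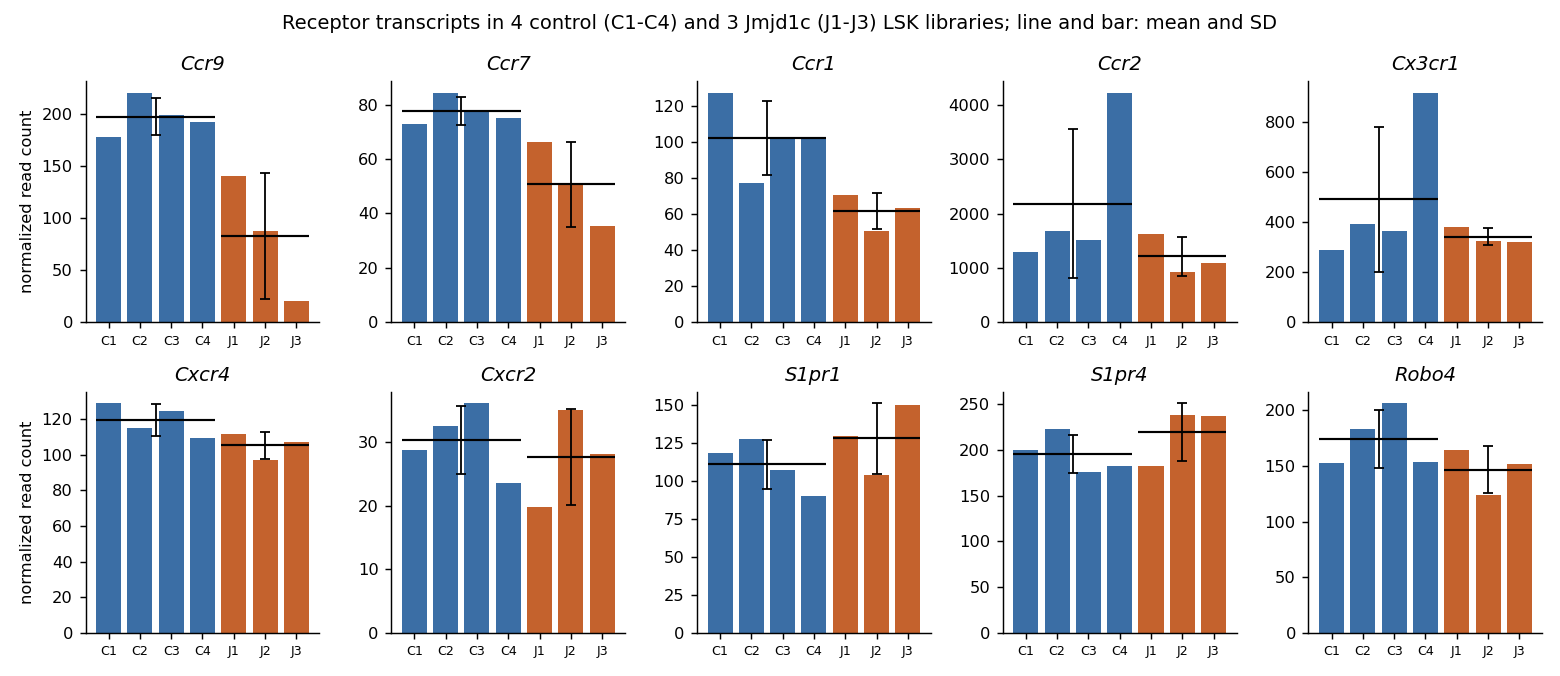
Normalized read counts (vertical axes, from 0) of the 10 receptor genes in control libraries C1 to C4 (blue) and Jmjd1c libraries J1 to J3 (orange), with the mean and SD of each group in black. The J bars of Ccr9, Ccr7 and Ccr1 are all shorter than every C bar, and Ccr2 and Cx3cr1 stand out in C4 at 4229.6 and 919.

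Among the receptors of the thymus-homing route, Ccr9 had the widest difference of the 10 between the groups. Ccr9 (ENSMUSG00000029530, mm10 chromosome 9, 123678439 to 123784330, plus strand) encodes the receptor for CCL25, the chemokine of thymic and gut epithelium. It had 178, 221, 199 and 192 normalized read counts in controls 1 to 4 and 141, 87.6 and 20 in Jmjd1c 1 to 3. The control libraries lay close together and above all Jmjd1c libraries, and the Jmjd1c libraries were spread widely, with Jmjd1c 3 lowest. Group means were 198 ± 17.7 (SD, n = 4) and 82.7 ± 60.5 (SD, n = 3), and the log2 fold change was -1.63 ± 0.47, with a 95% interval from -2.66 to -0.59 (limma, adjusted p = 0.0967). On the recovered reads the log2 fold change was smaller, at -1.21 with edgeR (adjusted p = 0.124) and -1.26 with DESeq2 (adjusted p = 0.254). In the Jmjd1c group the SD of Ccr9 on the log2 scale was 1.44, and 0.523% of all tested genes had a larger one there. The reads behind these values were 170, 85 and 17 in Jmjd1c 1 to 3, and the exact Poisson 95% interval of the 17 reads, which covers counting error only, runs from 9.90 to 27.2. The size of the difference depended on single libraries: it was -0.82 without Jmjd1c 3 (adjusted p = 0.113) and -2.20 without Jmjd1c 1 (adjusted p = 0.0193), a fit in which 0.92% of all genes were called lower.

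Ccr7 (ENSMUSG00000037944, chromosome 11, 99144196 to 99155077, minus strand) encodes the receptor for CCL19 and CCL21, which acts with CCR9 in settling the thymus and guides lymphocytes and dendritic cells into lymph nodes. Its values were 72.8, 84.5, 78.1 and 75.2 in controls 1 to 4 and 66.2, 50.5 and 35.2 in Jmjd1c 1 to 3. The order of the Jmjd1c libraries was that of Ccr9, and again no Jmjd1c library reached the control range. The log2 fold change was -0.65 ± 0.20, with a 95% interval from -1.09 to -0.21 (limma, adjusted p = 0.116). It was -0.42 without Jmjd1c 3 (adjusted p = 0.334) and -0.86 without Jmjd1c 1 (adjusted p = 0.0335). The ratio of Ccr9 to Ccr7 within a library was 2.45 to 2.61 in the control libraries and 2.13, 1.73 and 0.567 in Jmjd1c 1 to 3.

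Other genes that lymphoid cells share with these receptors were read beside them. Flt3, the cytokine receptor of multipotent and early lymphoid progenitors, had 5172 to 5956 in the control libraries and 5295, 4841 and 4039 in Jmjd1c 1 to 3, again lowest in Jmjd1c 3 (log2 fold change -0.25, limma adjusted p = 0.157). The 13 T and NK cell markers summed to 2255 to 2541 in the control and 1964 to 2818 in the Jmjd1c libraries, and the 12 B and plasma cell markers to 3306 to 6004 and 1987 to 4127. No gene of either list was called or at 0 in all libraries. Siglech, a marker of plasmacytoid dendritic cells, which also carry CCR9, was at 4.0 to 8.45 in the control and 0 to 3.31 in the Jmjd1c libraries, too low to test. Bst2, another gene of those cells, went the other way, with 309 to 462 in the control and 420.4, 482 and 506 in the Jmjd1c libraries (0.25, limma adjusted p = 0.307). Tcf4, also among the dendritic cell markers, had 845 to 948 in the control and 734 to 823 in the Jmjd1c libraries (-0.19, limma adjusted p = 0.160). The part of such cells in the Ccr9 and Ccr7 values was not tested.

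The upstream sequences of Ccr9 and Ccr1 are shown because these receptors, which lie in the same stretch of chromosome 9, were both below the control range in every Jmjd1c library, with that of Cxcr4, whose groups overlapped, beside them. They are taken from RefSeq start windows of GRCm38.p6, the assembly that mm10 names, and hold only the bases ahead of the start that no annotated exon of the receptors covers: 208 bases at chr9:123766961-123767168 (plus strand) for Ccr9, 250 at chr9:123968693-123968942 (minus strand) for Ccr1 and 250 at chr1:128592300-128592549 (minus strand) for Cxcr4. Each is written 5′ to 3′. Capitals mark matches, on either strand, to 5 short motifs. These were the E-box CANNTG bound by E proteins, the letters TGTGGT known from RUNX factors, the letters GGAAGT known from ETS factors, the letters AGATAA known from GATA factors and the letters TTGNGNAA known from C/EBP factors.
Ccr9: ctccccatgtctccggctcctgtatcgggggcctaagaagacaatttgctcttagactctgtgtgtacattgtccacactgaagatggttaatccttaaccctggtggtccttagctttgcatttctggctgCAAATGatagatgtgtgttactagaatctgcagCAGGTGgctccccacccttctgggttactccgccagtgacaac
Ccr1: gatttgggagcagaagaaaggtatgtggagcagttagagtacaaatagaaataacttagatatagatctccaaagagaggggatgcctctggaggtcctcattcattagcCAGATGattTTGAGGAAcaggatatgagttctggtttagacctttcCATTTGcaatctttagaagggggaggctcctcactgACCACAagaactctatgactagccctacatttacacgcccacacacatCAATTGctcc
Cxcr4: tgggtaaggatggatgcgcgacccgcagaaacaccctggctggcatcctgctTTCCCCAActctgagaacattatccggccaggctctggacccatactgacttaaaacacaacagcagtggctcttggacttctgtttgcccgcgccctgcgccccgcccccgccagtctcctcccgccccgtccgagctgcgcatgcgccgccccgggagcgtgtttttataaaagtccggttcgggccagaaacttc
The Ccr9 sequence held 2 E-boxes and no other match, the Ccr1 sequence held 3 E-boxes, 1 RUNX and 1 C/EBP match, and the Cxcr4 sequence held 1 C/EBP match alone. None of these matches overlapped another. Of 32851 RefSeq windows of 250 bases, 66.2% held an E-box, 14.0% a RUNX match, 19.7% an ETS match, 9.99% a GATA match and 11.7% a C/EBP match. Windows were found for 8 of the 10 receptors, and 7 of these 8 held an E-box. These shares and counts cover all 250 bases, including any under annotated exons. Cut as above, Cx3cr1 had 0 bases left and Ccr2 had 17 without an E-box. A match is a description of letters and not of a bound site.

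Among the inflammatory chemokine receptors, Ccr1 had the smallest p of the 10 genes. Ccr1 (ENSMUSG00000025804, chromosome 9, 123962124 to 123968692, minus strand) encodes a receptor for CCL3, CCL6 and CCL9 on myeloid cells and some progenitors. It had 127, 77.2, 103 and 101 normalized read counts in controls 1 to 4 and 70.3, 50.5 and 63.4 in Jmjd1c 1 to 3. The gap between the groups was narrow, since control 2 lay just above Jmjd1c 1. Means were 102 ± 20.4 (SD, n = 4) and 61.4 ± 10.1 (SD, n = 3), with a log2 fold change of -0.72 ± 0.19 and a 95% interval from -1.12 to -0.31 (limma, adjusted p = 0.0682). With DESeq2 on recovered reads the log2 fold change was -0.74 and passed (adjusted p = 0.0269). Left-out libraries moved it between -0.84 and -0.58, and adjusting for total exon length and GC content (below: GC-adjusted) gave -0.55 (adjusted p = 0.150).

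Some granulocyte markers were lower in the Jmjd1c libraries as Ccr1 was, and others were not. The 12 neutrophil markers summed to 10807 to 14357 in the control libraries and 7394 to 10582 in the Jmjd1c libraries, and Fcnb, a lectin of granule-forming neutrophil precursors, fell (log2 fold change -0.62, limma adjusted p = 0.0317). Of 11 tested, 9 had a log2 fold change below 0 and 2, Retnlg (0.52) and Cebpe (0.21), above it. The 10 markers of basophils, mast cells and eosinophils summed to 6512 to 10253 and 3421 to 6119, and the basophil protease gene Prss34, the largest part of that sum, fell (-1.12, limma adjusted p = 0.0410). Of these 10, all tested, 7 had a log2 fold change below 0, and 3 were above it without passing: the eosinophil genes Epx (0.89, adjusted p = 0.182) and Prg2 (0.13), and Gata2 (0.54, adjusted p = 0.0815). Neither list had a gene at 0 in all libraries. The part of these cells in the Ccr1 values was not tested.

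Cxcr2 (ENSMUSG00000026180, chromosome 1, 74153989 to 74161246, plus strand), the receptor of mature neutrophils for CXCL1 and CXCL2, was the lowest of the 10 genes. It had 28.8, 32.6, 36.1 and 23.6 in controls 1 to 4 and 19.9, 35.0 and 28.2 in Jmjd1c 1 to 3, and the groups overlapped, with Jmjd1c 1 below every control library. The log2 fold change was -0.14 ± 0.25, with a 95% interval from -0.69 to 0.41 (limma, adjusted p = 0.791), and its sign turned to 0.068 without Jmjd1c 1. Its ligand genes Cxcl1, Cxcl2, Cxcl3 and Cxcl5 had at most 1.75 normalized read counts in any library.

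Ccr2 and Cx3cr1, the receptors of monocytes and of their progeny, had the highest normalized read counts of the 10 in every library and stood out in control 4. Ccr2 (ENSMUSG00000049103, chromosome 9, 124101950 to 124113557, plus strand) encodes the receptor for CCL2 and CCL7. It had 1288, 1682, 1521 and 4229.6 normalized read counts in controls 1 to 4 and 1616, 927 and 1088 in Jmjd1c 1 to 3. Cx3cr1 (ENSMUSG00000052336, chromosome 9, 119901616 to 120069879, minus strand), which encodes the receptor for the membrane-bound chemokine fractalkine, had 288, 393, 364 and 919 in the control and 379.8, 325 and 322 in the Jmjd1c libraries. For both genes control 4 stood far above the other 6 libraries, at 2.51 and 2.34 times the next control library, and the groups overlapped.

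The fold changes of this pair were smaller without that library, and that of Cx3cr1 all but vanished. For Ccr2 the log2 fold change was -0.71 ± 0.33, with a 95% interval from -1.44 to 0.01 (limma, adjusted p = 0.262). Without control 4 it was -0.34 with a smaller error of 0.16 (adjusted p = 0.291). For Cx3cr1 it was -0.37 ± 0.30 (adjusted p = 0.515), and it was -0.02 without control 4 (adjusted p = 0.952) and -0.58 without control 1 (adjusted p = 0.279). Both genes kept nearly the same ratio to each other in control 4 as in the other control libraries: Ccr2 over Cx3cr1 was 4.47, 4.28, 4.18 and 4.6 in controls 1 to 4, and 4.25, 2.86 and 3.38 in Jmjd1c 1 to 3. Ccr2 made up 69.6% of the summed values of the 10 receptors in control 4, and 45.5% to 56.1% in the other 6 libraries. Without Ccr2 and Cx3cr1 the remaining 8 receptors summed to 929 in control 4 and to 1007 to 1064 in controls 1 to 3.

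Most monocyte, macrophage and dendritic cell markers were highest in control 4, as Ccr2 and Cx3cr1 were. Of 16 monocyte and macrophage markers 15 had a read, and 14 of them were highest in control 4, among them Adgre1, which encodes F4/80 (1381 against 279 to 516 in the other libraries), Vcam1 (1559 against 248 to 532) and C1qb (2682 against 572 to 1038). The Kupffer cell gene Clec4f was at 0 in all libraries. Within the Jmjd1c group the summed monocyte and macrophage markers were highest in Jmjd1c 1 (13102 against 8392 and 9908), as Ccr2 and Cx3cr1 were. The 12 dendritic cell markers summed to 91819 in control 4, where controls 1 to 3 had 26934 to 38221 and the Jmjd1c group 26716 to 41448. Most of the control 4 sum lay in the MHC class II genes Cd74 (63066) and H2-Aa (17906). Of the 12, 8 were highest in control 4, among them Cd209a (3158 against 417 to 1177 elsewhere). Flt3, Siglech, Bst2 and Tcf4 were not highest there. The summed LSK surface genes did not share the rise in control 4: their sum was 25683 in control 4 and 24483 to 28198 in the other libraries. Of these 10 genes 3 were highest in control 4. They were Ptprc (3187 against 1992 to 2493 elsewhere), Cd48 (1606 against 1209 to 1520) and Ly6a (915 against 694 to 871). Ly6c2, a monocyte antigen gene, was the called gene of these lists: it fell in Jmjd1c (-0.80, limma adjusted p = 0.00407), and control 4, at 1339, was close to the other control libraries (1168 to 1320.3). The part of these cells in the Ccr2 and Cx3cr1 values was not tested.

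**Figure D2:**
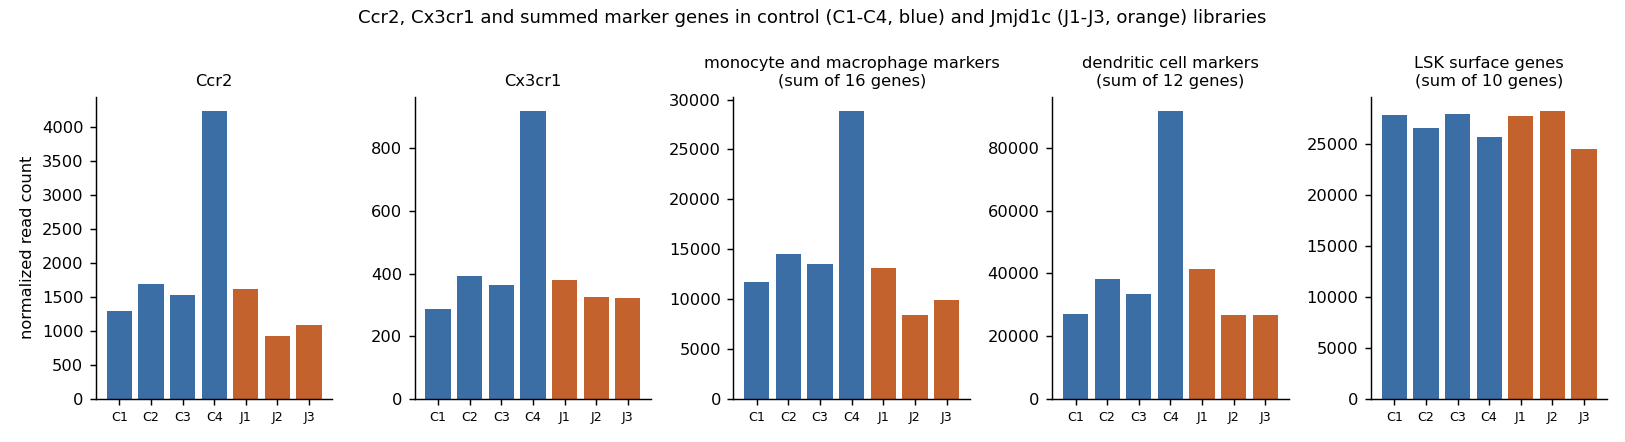
Normalized read counts of Ccr2 and Cx3cr1 and summed counts of 3 marker lists (vertical axes, from 0) in control libraries C1 to C4 (blue) and Jmjd1c libraries J1 to J3 (orange). C4 is the tallest bar in the first 4 panels and not in the panel of LSK surface genes, where it is 25683.

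Other chemokine receptor genes on chromosome 9, where Ccr9, Ccr1, Ccr2 and Cx3cr1 lie, were read in control 4, and those given here were chosen after their values were seen. Xcr1, a receptor of cross-presenting dendritic cells, had 146 in control 4 and 37.1 to 71.2 in the other libraries, and Cxcr6 had 68.2 against 11.3 to 32.8. Cxcr5, Ackr4 and Ccrl2, on the same chromosome, were not highest in control 4. Ccr9 and Ccr1, which lie on the same chromosome, were within the range of the other control libraries in control 4. Of the 50-base stretches of the longest Ccr2 transcript, 2.27% also occur in transcripts of other genes. The share was 6.77% for Cxcr2 and at most 1.24% for the other 8 receptors. In the annotation 3 genes overlap Ccr9 exons. The opposite-strand gene AC165425.1 covers 18.8% of the exon bases of Ccr9 and had at most 6.99 normalized read counts, and the same-strand gene Gm17200 had 80.9 to 108 in the control and 59.9 to 104 in the Jmjd1c libraries. Whether the counting used strand is not given in the sources used here, so that reads of the overlapping parts cannot be assigned with certainty.

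Cxcr4, the retention receptor, differed little between the groups. Cxcr4 (ENSMUSG00000045382, chromosome 1, 128588199 to 128592293, minus strand) had 129, 115, 125 and 109 normalized read counts in controls 1 to 4 and 112, 96.9 and 107 in Jmjd1c 1 to 3. Jmjd1c 1 lay within the control range and the other Jmjd1c libraries just under it. Means were 119 ± 8.97 (SD, n = 4) and 105 ± 7.57 (SD, n = 3), a log2 fold change of -0.18 ± 0.12 with a 95% interval from -0.44 to 0.08 (limma, adjusted p = 0.429). Its Jmjd1c libraries were the closest to each other among the 10 genes, with a coefficient of variation of 7.20%. The GC-adjusted log2 fold change was -0.05.

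Neither sphingosine-1-phosphate receptor passed, and both had fold changes above 0, unlike the other 8 receptors. S1pr1 (ENSMUSG00000045092, chromosome 3, 115710433 to 115715072, minus strand), the receptor through which lymphocytes and progenitors follow the lipid into blood and lymph, had 118, 128, 107 and 90.1 in controls 1 to 4 and 129.9, 104 and 150.3 in Jmjd1c 1 to 3. Its log2 fold change was 0.20 ± 0.16, with a 95% interval from -0.15 to 0.55 (limma, adjusted p = 0.510). It was 0.08 without Jmjd1c 3, 0.11 without control 4 and 0.34 without Jmjd1c 2. S1pr4 (ENSMUSG00000044199, chromosome 10, 81497747 to 81500132, minus strand), a receptor of haematopoietic cells, had 200, 223, 176 and 183 in the control and 183, 238 and 237 in the Jmjd1c libraries. Its log2 fold change was 0.16 ± 0.12 (-0.11 to 0.43, limma adjusted p = 0.499), and it was 0.10 without Jmjd1c 2 or Jmjd1c 3 and 0.29 without Jmjd1c 1. For both genes 1 Jmjd1c library lay within the control range and the others above it. The direction of S1pr4 turned when GC-adjusted, to -0.0050.

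Robo4 (ENSMUSG00000032125, chromosome 9, 37401897 to 37415115, plus strand), which endothelial cells and stem cells share, had 153, 183, 206 and 154 in controls 1 to 4 and 165, 124 and 151 in Jmjd1c 1 to 3. The groups overlapped, and the log2 fold change was -0.25 ± 0.14, with a 95% interval from -0.55 to 0.06 (limma, adjusted p = 0.358). It was -0.38 GC-adjusted (adjusted p = 0.215), -0.13 without Jmjd1c 2 (adjusted p = 0.741) and -0.16 without control 3 (adjusted p = 0.610). Defining endothelial markers were near 0 in every library: Cdh5 lay between 0 and 2.62 and Kdr between 1.03 and 6.03. The 11 endothelial markers, several of which stem cells also express, summed to 2078 to 2569 in the control and 2136 to 2316 in the Jmjd1c libraries.

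**Figure D3:**
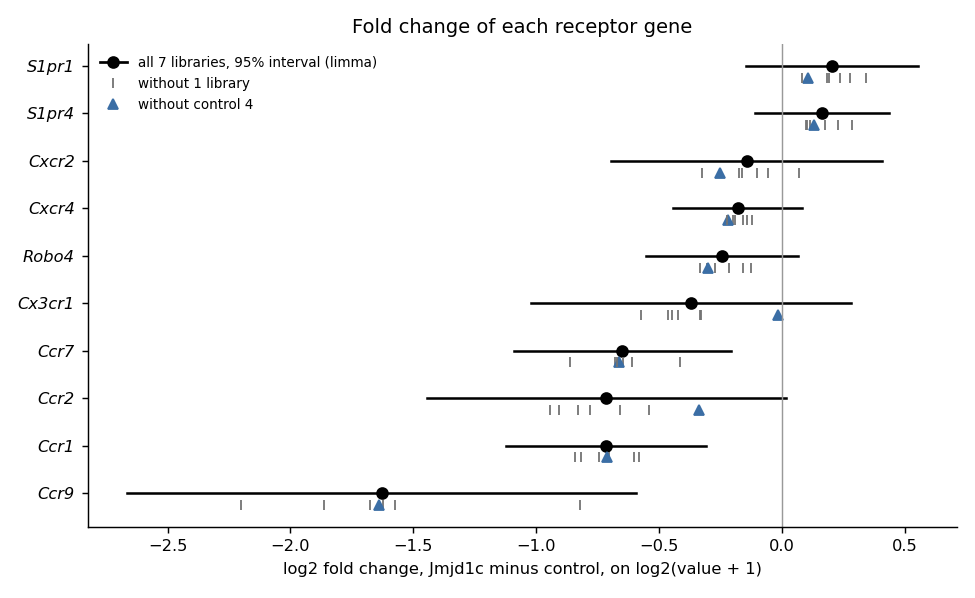
Log2 fold change (Jmjd1c minus control, horizontal axis) of each receptor gene with its 95% interval from limma (black), and the fold changes with 1 library left out below it (grey marks, blue triangle for control 4). Intervals of Ccr9, Ccr7 and Ccr1 lie below 0 before adjustment for the genes tested, and the triangles of Ccr2 and Cx3cr1 move to -0.34 and -0.02.

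Levels between receptors were compared per kb of the principal transcript of each gene. In the control libraries Ccr2 had 381 ± 240.2 normalized read counts per kb (SD, n = 4), Cx3cr1 109 ± 64.3, S1pr4 81.9 ± 8.84, Cxcr4 66.1 ± 4.97 and Robo4 54.0 ± 7.98. Below them came Ccr7 at 39.3 ± 2.55 per kb, Ccr9 at 38.0 ± 3.41, S1pr1 at 36.4 ± 5.34 and Ccr1 at 36.0 ± 7.20, and last Cxcr2 at 9.94 ± 1.76. Neighbours whose control libraries overlapped on this scale were Cx3cr1 and S1pr4, Cxcr4 and Robo4, and the run of Ccr7, Ccr9, S1pr1 and Ccr1. Without control 4, a choice made after its values were seen, Ccr2 had 261 ± 34.6 per kb (SD, n = 3) and Cx3cr1 77.5 ± 12.1, below S1pr4 at 83.7 ± 9.91, and the libraries of the latter pair overlapped. In the Jmjd1c libraries S1pr4 (91.9 ± 13.2 per kb, SD, n = 3) likewise had a higher mean than Cx3cr1 (76.1 ± 7.29) with overlapping libraries, and S1pr1 (42.1 ± 7.60) had a higher mean than Ccr7 (25.6 ± 7.83), Ccr1 (21.7 ± 3.55) and Ccr9 (15.9 ± 11.6). Read over all annotated exons, Ccr9 would have 19.3 and Robo4 32.8 per kb in the control libraries, because both genes have long alternative exons.

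**Figure D4:**
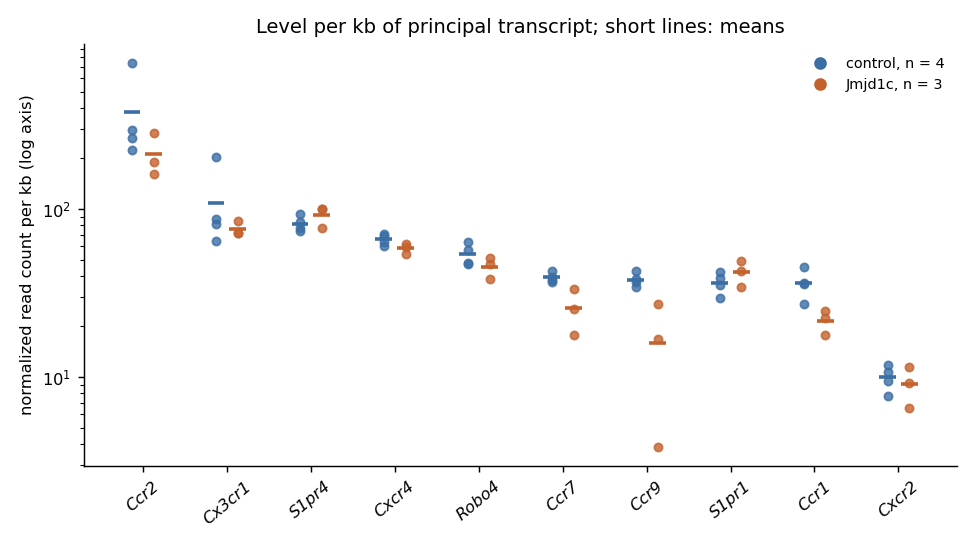
Normalized read counts per kb of principal transcript (log axis) for the 10 receptors, ordered by their control mean, with 1 point per library (control blue, n = 4, Jmjd1c orange, n = 3) and short lines at group means. Ccr2 is highest at 381 per kb in the control libraries and Cxcr2 lowest at 9.94, and the 4 receptors ahead of Cxcr2 lie within the narrow band from 36.0 to 39.3.

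The genes whose values followed Ccr1 and Cxcr4 most closely over the 7 libraries were ranked by Pearson correlation on the log2 scale among the other 12812 tested genes, as a description without a test, since the libraries share depth and group. For Ccr1 these were Fam45a (r = 0.994), P2ry10, a lymphocyte G protein-coupled receptor gene (r = 0.979), and the zinc transporter gene Slc30a7 (r = 0.977). For Cxcr4 they were Wdr20 (r = 0.985), Smarcd2, a SWI/SNF subunit needed for granulocyte development (r = 0.977), and Gm14005 (r = 0.970). None of the 6 genes passed the threshold (limma, adjusted p from 0.122 to 0.318).

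Chemokine ligands were read next. Of 22 chemokine ligand genes 12 were tested, 1 fell, 0 rose and 11 did not pass, with a median log2 fold change of -0.50. Ccl3, a ligand of CCR1 made by basophils and myeloid cells, fell by 1.15 ± 0.21 on the log2 scale (limma, adjusted p = 0.0343), with 257, 218, 331 and 228 in controls 1 to 4 and 136, 145 and 75.1 in Jmjd1c 1 to 3. It did not pass GC-adjusted (-0.95, adjusted p = 0.0724). All Jmjd1c libraries lay below the control range, as did the summed markers of basophils, mast cells and eosinophils given above. Of those 10 markers 3 had a log2 fold change above 0. The part of such cells in the Ccl3 values was not tested. Cxcl12, the ligand of CXCR4, was named after its values were seen. It had 37.6, 39.8, 21.0 and 19.2 in the control and 16.5, 12.4 and 8.22 in the Jmjd1c libraries (-1.16 ± 0.34, adjusted p = 0.0992). The 9 stromal markers, of which Cxcl12 is 1, summed to 326 to 435 in the control and 370 to 606 in the Jmjd1c libraries, with most of the sum in Pdgfrb (233 to 280 and 276 to 369). Of the 4 tested, 1 had a log2 fold change below 0, namely Cxcl12, and none was called. Lepr and Pdgfra were at most 2.41 in any library. The part of stromal cells in the Cxcl12 values was not tested. Ccl19 and Ccl21a, the ligands of CCR7, and Cxcl1 were at 0 in all libraries, and Cx3cl1 lay between 4.12 and 9.39.

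Of 18 other chemokine receptor genes 8 were tested and none passed (median log2 fold change -0.37). Ccr3, the eotaxin receptor of eosinophils and basophils, had 45.6, 29.0, 47.8 and 51.6 in the control and 33.9, 18.5 and 10.6 in the Jmjd1c libraries, where Jmjd1c 1 lay within the control range (-1.13 ± 0.35, limma adjusted p = 0.115). For Ccr3 the value was -1.53 without Jmjd1c 1 (adjusted p = 0.0247) and -0.74 without Jmjd1c 3 (adjusted p = 0.330). Cxcr6, the receptor for CXCL16, had a log2 fold change of -0.91 ± 0.40 (adjusted p = 0.232), which was -0.60 without control 4 (adjusted p = 0.391) and -0.60 without Jmjd1c 2 (adjusted p = 0.567). The other 10, among them Cxcr1, Ccr6 and the CXCL12-binding Ackr3, had too few reads to test.

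The sphingosine-1-phosphate and Slit pathways held no called gene. Of 16 genes that make, export, degrade or bind the lipid 14 were tested (median log2 fold change 0.15). Sphk2, a kinase that makes it, had 233 to 268 in the control and 288, 308 and 352 in the Jmjd1c libraries, all above the controls (0.32 ± 0.10, limma adjusted p = 0.100, and 0.12 GC-adjusted). Mfsd2b, the exporter of red cells and platelets, had a log2 fold change of 0.55 ± 0.21 (adjusted p = 0.191), which was 0.26 without Jmjd1c 3 (adjusted p = 0.519) and 0.80 without Jmjd1c 1 (adjusted p = 0.0386). Of 10 Robo and Slit partners 4 were tested (median 0.12), and the genes of the ligands, Slit1, Slit2 and Slit3, were at most 4.66 in any library. Srgap1, a GTPase-activating protein that acts below Robo receptors, had 6.99 to 14.5 in the control and 21.5, 25.8 and 23.5 in the Jmjd1c libraries (1.04 ± 0.30, adjusted p = 0.0937). Robo3 had a log2 fold change of 0.21 ± 0.33 (adjusted p = 0.754). GC-adjusted, it was -0.0014, and without control 2 it was 0.055.

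Of the genes that carry the receptors' signal, 3 rose. Among 25 tested G protein subunits, receptor kinases, arrestins and RGS brakes, 1 rose, 0 fell and 24 did not pass (median log2 fold change 0.07). Gnai2, an inhibitory G protein subunit of leukocytes and 1 of those through which chemokine receptors signal, rose by 0.85 ± 0.17 (limma, adjusted p = 0.0374). It had 619, 768, 600.3 and 712 in controls 1 to 4 and 866, 1279.8 and 1609.7 in Jmjd1c 1 to 3. Its relatives Gnai3 (0.07, adjusted p = 0.640) and Gna13 (0.07, adjusted p = 0.616) did not pass. All 22 migration effectors were tested, 2 rose and 20 did not pass (median 0.08). Arhgef1, the exchange factor by which G12 and G13 activate RhoA, rose by 0.62 ± 0.12 (adjusted p = 0.0383), from 166 ± 16.3 (SD, n = 4) to 256 ± 38.5 (SD, n = 3). Tiam1, an exchange factor for RAC1, rose by 0.57 ± 0.12 (adjusted p = 0.0474), from 80.1 ± 3.12 (SD, n = 4) to 119 ± 9.34 (SD, n = 3). GC-adjusted, none of the 3 passed (Gnai2 0.70, Arhgef1 0.33, Tiam1 0.48).

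Of 20 adhesion and mobilisation genes, all tested, 1 fell and 19 did not pass (median log2 fold change -0.04). Ctsg, the neutrophil and monocyte protease cathepsin G, which cleaves CXCL12, fell by 0.46 ± 0.10 (limma, adjusted p = 0.0468), from 455 ± 44.4 (SD, n = 4) to 330 ± 35.7 (SD, n = 3). It did not pass GC-adjusted (-0.36). The summed neutrophil markers given above were also lower in Jmjd1c, and the part of such cells in the Ctsg values was not tested. Over all 7 lists 5 of 105 tested genes were called, 3 higher and 2 lower, with a median of -0.005, where 1.51% of all tested genes were called higher and 0.289% lower. The number depended on single libraries: 0 were called without control 2, control 3, Jmjd1c 2 or Jmjd1c 3, 1 without control 1 and 12 without Jmjd1c 1.

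**Figure D5:**
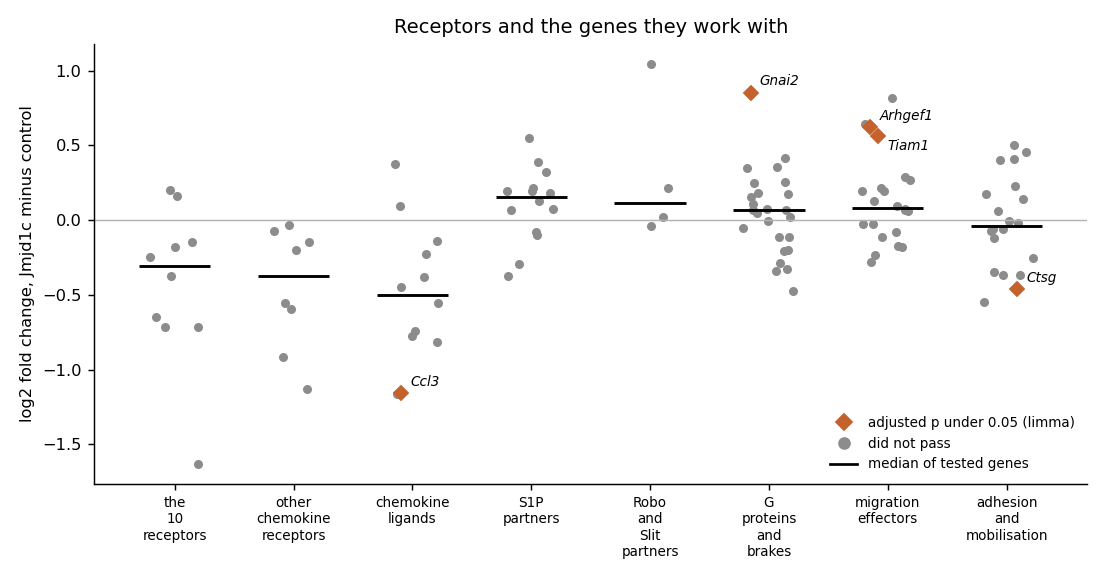
Log2 fold change (Jmjd1c minus control, vertical axis) of every tested gene of the 10 receptors and of 7 lists of genes that work with them, with medians as black lines. Diamonds mark the 5 called genes, Ccl3, Gnai2, Arhgef1, Tiam1 and Ctsg, and the receptor column holds none.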

How the data were processed

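Bulk RNA-seq of LSK cells was measured in 4 control and 3 Jmjd1c libraries, prepared from Trizol RNA with a SMARTer ultra-low-input kit per the labels' protocols. Per gene, the deposited signal values in each column are whole multiples of 1 step (0.80 to 1.21), as counts divided by a size factor do. Dividing by the step gave whole reads for 100% of values above 0 (tolerance 0.01). Trim Galore 0.2.8, STAR, HTSeq 0.6.1p1, DESeq 1.18.0 and mm10 come from the submitters' processing notes, and the annotation release is not given in the sources used here.

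limma-trend (limma 3.58.1, R 4.3.3) was fitted on log2(value + 1) without covariates for genes reaching 10 in 3 or more libraries, with Benjamini-Hochberg adjustment over all 12813 tested genes and a threshold of 0.05. Adding 1 understates fold changes of low genes, but for Ccr9 the log-scale value was larger than those of edgeR and DESeq2. The ± beside a fold change is a standard error. Two-sided tests were used. edgeR 4.0.16 (quasi-likelihood) and DESeq2 1.42.0 were run on recovered reads as alternatives, and the steps were tested on simulated data. Symbols matched 37607 of 39179 IDs. Positions, lengths and GC content came from GENCODE M21.

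The members and lists were chosen with earlier results of these data known. Named genes are the 10 receptors, Jmjd1c, up to 4 called genes of each of 7 lists, or its 2 smallest p-values where none was called, and the closest correlates of Ccr1 and Cxcr4. GC-adjusted values come from a fit in which a spline of each library's deviations from the gene means on GC content and total exon length was subtracted.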

Additional observations from a re-analysis of the deposited data

Results flagged for a closer look

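In the 4 control libraries, the highest value of Ccr2 (4229.6 normalized read counts, control 4) was separated from the next control library (1682) by 0.866 of the range of the group, above the 95% limit of Dixon's test for 4 samples. The highest value of Cx3cr1 (919, control 4, next 393) was separated by 0.833 of the range. The summed monocyte and macrophage markers were also highest in control 4 (28847, next 14515). Among the other marker lists, the T and NK cell markers were separated in control 1 (2541, next 2293) and the B and plasma cell markers in control 3 (6004, next 3744). Chance flags about 1 in 20 groups, and 31 were examined.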

How the results depend on the processing

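Of 170 refitted values of the 10 receptors (17 alternatives each), 164 kept their direction and their side of the threshold. There were 3 that passed the threshold only there, all lower in Jmjd1c: Ccr1 with DESeq2, and Ccr9 and Ccr7 without Jmjd1c 1. Cxcr2 ran from -0.33 to 0.068 without 1 library and reversed without Jmjd1c 1, S1pr4 reversed to -0.0050 GC-adjusted and to -0.035 when the replicate block was added, and Robo3 to -0.0014 and -0.097 in those same fits; the cause was not tested. The number of receptors called was 1 with DESeq2 and ran from 0 to 2 over the fits without 1 library. Over all tested genes, 231 were called (84.0% higher), against 590.0 with DESeq2 (80.2% higher), 0 with limma without the intensity trend (2213 at an unadjusted p under 0.05), 14 with the replicate block (50% higher), 43 GC-adjusted (76.7% higher), 37 with both together (56.8% higher) and 3 to 631 without 1 library. Of the pathway genes 5 were called, against 12 with DESeq2, 1 with the replicate block and GC adjustment together, and 0 to 12 without 1 library. With limma without the intensity trend, with the replicate block and GC-adjusted, 0 were called. At an unadjusted p under 0.05 these fits had 28, 30 and 34 of 105 pathway genes. Of all 12813 tested genes they had 2213, 1901 and 2309. The replicate block, a term for each replicate number, changed no call of a receptor. No Jmjd1c library is numbered 4, so with the block control 4 does not enter the group difference. Ccr2, for example, was at -0.34 both with the block and without control 4. The deviations of same-numbered libraries correlated at -0.15, -0.0021 and 0.017, so the numbers were not taken as pairs. The highest correlation of a control with a Jmjd1c library was 0.32, between control 4 and Jmjd1c 1. Read counts were lowest for Ccr9 in Jmjd1c 3 (17 reads) and for Cxcr2 (24 to 36 reads in the 7 libraries), which limits the precision of both.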
